A study of Mus musculus with 6 samples.

Results

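The tetraspanin family was examined in RNA-seq libraries of biliary epithelial cells, which form the lining of bile ducts, from injured mouse livers. Members were the rows of the deposited table whose symbol begins with Tspan and a digit (21 rows) and 10 tetraspanin genes with other names, namely Cd9, Cd37, Cd53, Cd63, Cd81, Cd82, Upk1a, Upk1b, Prph2 and Rom1. This gave 31 of the 24404 rows. One of them, Tspan2os, is an antisense RNA beside Tspan2 and codes for no tetraspanin, so 30 are tetraspanin genes. With a mean normalised count of at least 10 over the 6 libraries, 24 of the 31 were counted as expressed and tested, and the other 7 are described by their reads. The 3 Klf5 LKO libraries came from adult C57BL/6 mice that were Alfp-CreTg/+;Klf5flox/flox, and the 3 control libraries from adult C57BL/6 mice that were Alfp-Cre+/+;Klf5flox/flox, with both groups carrying the floxed Klf5 gene. All 6 libraries were made after 1 week of DDC (diethoxycarbonyl-dihydrocollidine), a compound that injures bile ducts, from cells labelled as intrahepatic bile duct. The Alfp-Cre transgene is active in liver epithelium, hepatocytes included, and was present in the Klf5 LKO group only, so loss of Klf5 and presence of Cre cannot be told apart. Whether each library is a different animal is not stated in the labels, and the p-values given here therefore describe library-to-library spread, which may be technical.

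Tetraspanins are small proteins that span the membrane several times and bind neighbouring membrane proteins, among them integrins, other adhesion molecules, signalling receptors and proteases, which they gather into clusters and help to sort. Cd9, Cd81 and Cd63 are carried in quantity by extracellular vesicles. A subgroup called TspanC8 binds the membrane protease Adam10, helps it to leave the endoplasmic reticulum and steers it to particular substrates. Klf5, the gene deleted here, codes for a zinc-finger transcription factor of epithelia that binds GC-rich and CACCC-type sequences.

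The libraries held 21810798, 24784167 and 17161087 reads assigned to genes in Klf5 LKO against 20066745, 11726934 and 17665210 in control. Values are normalised counts, that is the reads of a library over its size factor. Klf5 had 977, 1192 and 1183 normalised counts in Klf5 LKO libraries and 2056, 2018 and 2316 in control libraries, with no overlap (log2 fold change -0.93, SE 0.14, adjusted p = 0.0103 by limma). Leaving out control 1, 2 or 3 ended the Klf5 call (adjusted p = 0.0671, 0.0702 and 0.0573), while its fold change stayed negative. All 16 biliary markers examined had reads in both groups, and Epcam ranged over 23402 to 26173 in Klf5 LKO against 25301 to 28906 in control. Hepatocyte transcripts were also present, with summed normalised counts of 13 markers of 16777 to 23429.6 in Klf5 LKO against 15297 to 21250.0 in control. Of these, Ahsg was higher in Klf5 LKO (log2 fold change 1.14, limma adjusted p = 0.0377) and Apob lower (log2 fold change -1.24, limma adjusted p = 0.0322). Endothelial markers were low, 499.6 to 604 in Klf5 LKO against 492 to 941 in control over 14 genes. Of 14 stellate cell and fibroblast markers, Lrat, Des, Pdgfra, Col1a2 and Col3a1 had 0 reads in all 6 libraries.

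Set on a common scale of normalised counts per kilobase of exons, which allows a rough comparison between genes, the tetraspanins covered a wide range. The length used is that of all annotated exons merged, which can exceed that of the transcript present. Order and shares on this scale depend on it. Cd9, a surface protein of adhesion and membrane fusion, was the highest, at 9269 ± 625 in Klf5 LKO against 8464 ± 338 in control (mean ± SD, n = 3 each). It was followed by Cd81, a partner of signalling and adhesion receptors, at 7740.0 ± 829.5 in Klf5 LKO against 7106 ± 793 in control. Tspan8, an epithelial tetraspanin of the gut and its glands, came next at 3712 ± 475 in Klf5 LKO against 6119 ± 444 in control, and Cd63, which resides in late endosomes and lysosomes, had 3092 ± 268 in Klf5 LKO against 2411 ± 291 in control. On this scale Cd9 was above Cd81 in all 6 libraries, with the closest values in Klf5 LKO 1, 8976 for Cd9 and 8672 for Cd81. In normalised counts, not divided by length, Cd81 was above Cd9 in all 6 libraries. In Klf5 LKO 1 these counts were 24967 for Cd81 and 18347 for Cd9. Together these 4 genes made up 74.2, 73.6 and 76.8% of the summed family level in Klf5 LKO libraries 1 to 3 and 75.9, 76.6 and 76.0% in control libraries 1 to 3. The summed level itself overlapped between groups, at 33598, 29930.3 and 31862 in Klf5 LKO against 32534, 33336 and 29049 in control. Within it Tspan8 took 12.5, 10.9 and 11.5% in Klf5 LKO against 19.1, 19.5 and 19.4% in control, and the ranges were apart. Cd63 took 9.17, 9.45 and 10.6% in Klf5 LKO against 8.24, 7.34 and 7.24% in control, again with no overlap.

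**Figure D1:**
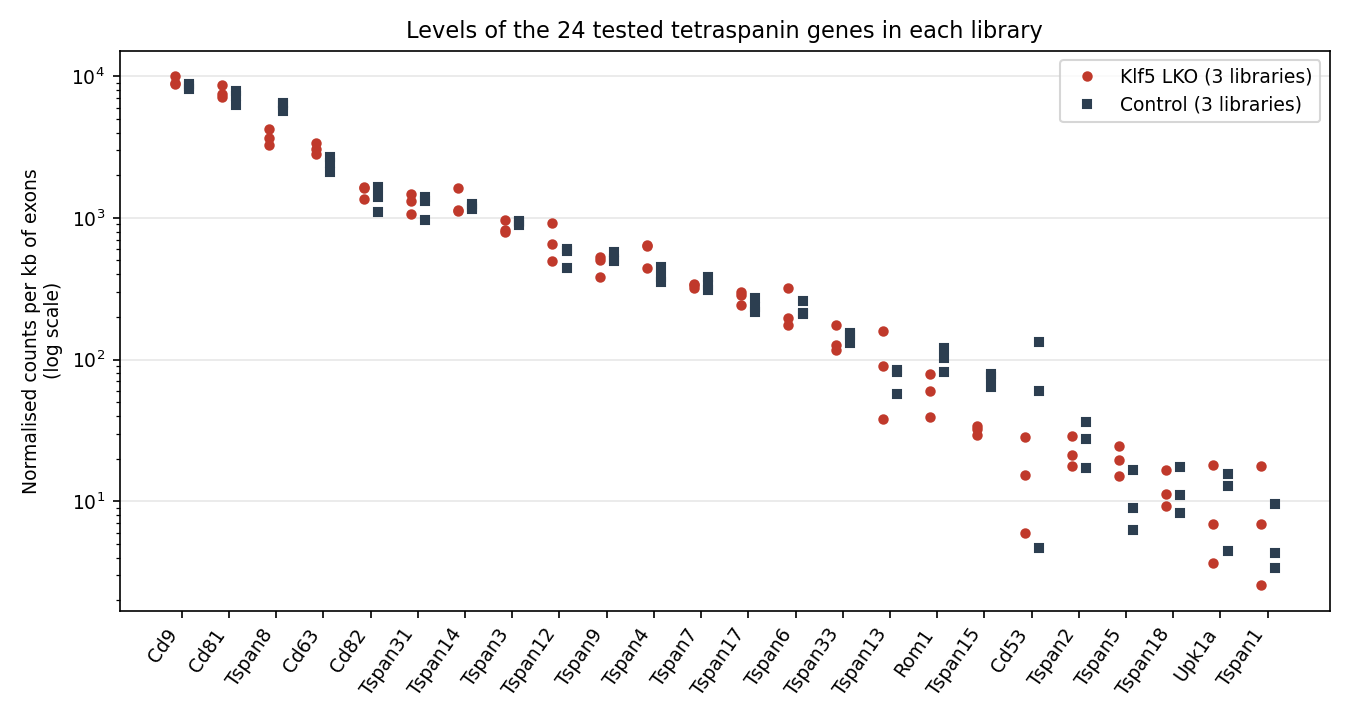
Normalised counts per kilobase of exons (log scale) for the 24 tested tetraspanin genes, ordered by their mean over all libraries, with 1 red circle per Klf5 LKO library and 1 dark square per control library. Cd9, Cd81, Tspan8 and Cd63 lie above the rest, and the circles of Tspan8, Tspan15 and Rom1 lie below their squares.

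Among the 24 tested members, 2 fell in Klf5 LKO (Tspan15 and Tspan8), 0 rose and 22 did not pass the test, which was a limma fit over all 13490 genes with a mean of at least 10 and Benjamini-Hochberg adjustment at 0.05. Over all tested genes 0.652% were called, 0.489% as lower and 0.163% as higher. The edgeR quasi-likelihood test and DESeq2 on recovered reads, which called 0.623% and 2.48% of all genes (0.489% and 1.6% as lower), called the same 2 members. The median log2 fold change was 0.06 over the 24 members and -0.01 over all tested genes, and 13 members had a positive and 11 a negative fold change. For 5 members every Klf5 LKO value lay on one side of every control value, 3 of them lower in Klf5 LKO (Tspan15, Tspan8 and Rom1) and 2 higher (Cd63 and Cd9). Over all tested genes 15.6% did not overlap, 7.88% lower and 7.72% higher.

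**Figure D2:**
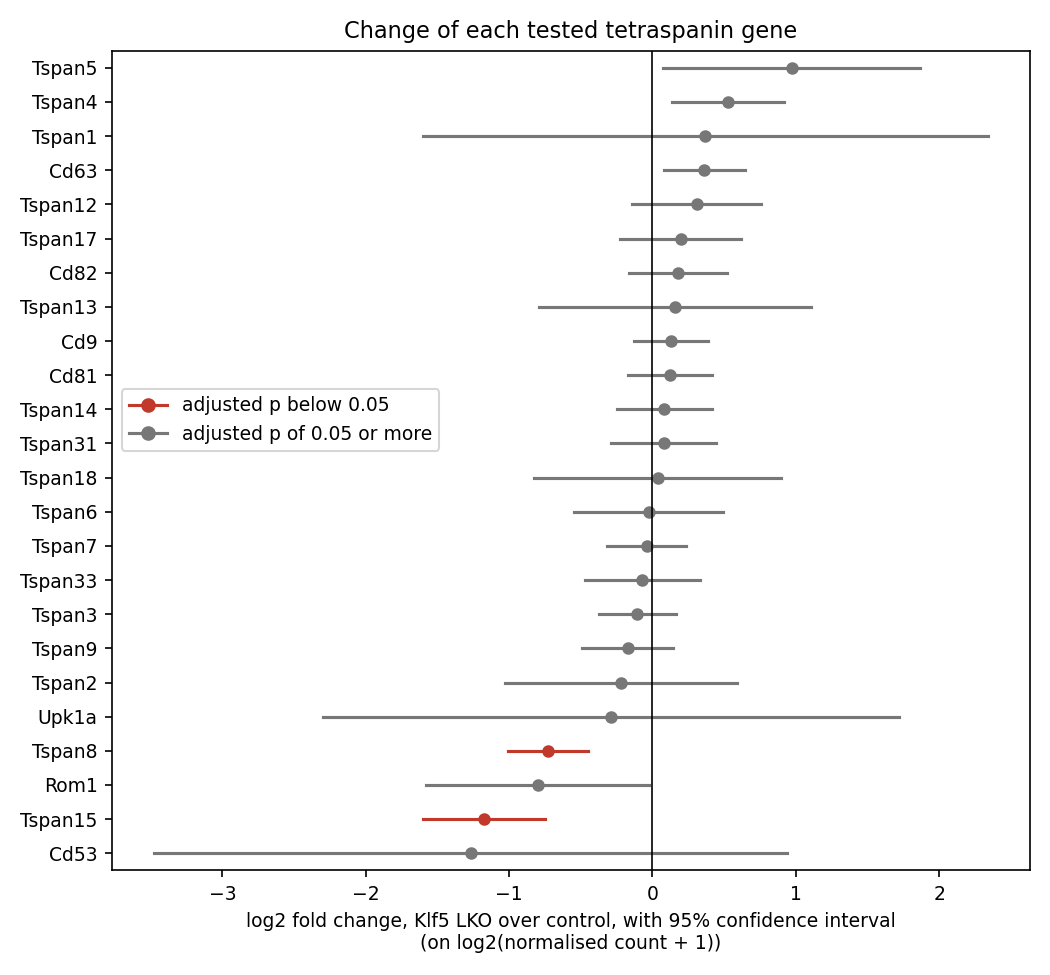
Log2 fold change of Klf5 LKO over control with its 95% confidence interval from limma, for the 24 tested tetraspanin genes from the highest to the lowest value. Tspan15 and Tspan8 (red) passed the test, and Cd53, Tspan1 and Upk1a have the widest intervals.

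Tspan8 (chromosome 10, 115816832 to 115849893, plus strand, mm10) is an abundant surface protein of digestive epithelia that associates with integrins and other tetraspanins. Its normalised counts were 7174, 5568 and 6213 in Klf5 LKO libraries 1 to 3 and 10598, 11060.0 and 9583 in control libraries 1 to 3. Every Klf5 LKO library lay below every control library. Tspan8 averaged 6318 ± 808 in Klf5 LKO libraries and 10414 ± 756 in control libraries (SD, n = 3 each), and its log2 fold change was -0.73 (SE 0.13, with a 95% confidence interval of -1.005 to -0.45, limma adjusted p = 0.0265). The adjusted p was 0.0398 with edgeR and 5.21e-06 with DESeq2. In bulk samples fewer cells of a type and less RNA per cell cannot be told apart, and ratios to other genes do not settle it. Tspan8 was also set against other genes, for description only. Per 100 normalised counts of Epcam, an adhesion protein of all ductal epithelium that binds tetraspanins, Tspan8 had 30.7, 21.3 and 24.4 in Klf5 LKO against 36.7, 39.0 and 37.9 in control, with no overlap. Per 100 counts of Cd9 it had 39.1, 30.8 and 30.4 in Klf5 LKO against 60.7, 61.8 and 57.9 in control, also with no overlap. Cd9 itself was higher in every Klf5 LKO library, which lowers this ratio there. Per 100 counts of the ductal keratin Krt19, Tspan8 had 117, 54.6 and 71.3 in Klf5 LKO against 72.3, 75.1 and 82.0 in control, and these ranges overlapped. Krt19 itself had 6139, 10188 and 8708 normalised counts in Klf5 LKO against 14659, 14735 and 11691 in control (log2 fold change -0.74, limma adjusted p = 0.0988).

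Tspan15 (chromosome 10, 62185396 to 62231251, minus strand, mm10) is a TspanC8 protein known to direct Adam10 to N-cadherin. It showed the largest decrease among the members that passed. Its normalised counts were 265, 239 and 279 in Klf5 LKO libraries 1 to 3 and 612, 646 and 520.2 in control libraries 1 to 3, from 322, 321 and 262 reads in Klf5 LKO against 665, 409 and 512 in control. The gap between the groups, with 279 as the highest Klf5 LKO and 520.2 as the lowest control value, was wider than the range within either group. Tspan15 averaged 261 ± 20.1 in Klf5 LKO libraries and 593 ± 65.2 in control libraries (SD, n = 3 each), and its log2 fold change was -1.18 (SE 0.19, with a 95% confidence interval of -1.60 to -0.75, limma adjusted p = 0.0198), or 2.26-fold lower in Klf5 LKO. The adjusted p was 0.0201 with edgeR and 2.47e-05 with DESeq2. Per 100 normalised counts of Epcam it had 1.13, 0.914 and 1.09 in Klf5 LKO against 2.12, 2.28 and 2.06 in control, with no overlap, while per 100 counts of Krt19 it had 4.31, 2.35 and 3.20 in Klf5 LKO against 4.17, 4.39 and 4.45 in control, which overlapped. The authors' deposited table gives log2 fold changes of -0.95 for Tspan15 and -0.66 for Tspan8, with adjusted p-values of 9.63e-06 and 7.06e-06, and these fold changes are shrunken towards 0, judged from the values.

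Both calls depended on which libraries were used. Without Klf5 LKO 2, control 1 or control 2 the adjusted p of Tspan15 was 0.0525, 0.143 and 0.143, while its log2 fold change stayed between -1.27 and -1.11 whichever library was left out. The call of Tspan8 ended without any library but Klf5 LKO 1, with adjusted p = 0.0705 and 0.0959 on leaving out Klf5 LKO 2 or 3, and 0.159, 0.166 and 0.0580 on leaving out control 1, 2 or 3, and its log2 fold change stayed between -0.82 and -0.64. Leukocyte transcripts also varied between libraries. The mean log2 value of 12 leukocyte markers was 7.12, 4.64 and 5.52 in Klf5 LKO against 8.19, 6.98 and 5.10 in control, and with this score as a term the log2 fold change was -1.11 for Tspan15 (adjusted p = 0.0516) and -0.64 for Tspan8 (adjusted p = 0.0552).

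Markers of cell types moved with these results as well. The summed normalised counts of the 16 biliary markers were 468086, 441245 and 495819 in Klf5 LKO against 618898, 530955 and 497351 in control, most of it from Spp1, and Krt7 had 6116, 7619 and 5437 in Klf5 LKO against 10101, 9939.5 and 9295 in control. Both sets of values were lower in every Klf5 LKO library, while the biliary markers Sctr and Krt23 rose. The 8 listed mesothelial markers summed to 1825 to 2045 in Klf5 LKO against 2833 to 3028 in control, and the gap came from 1 gene, Msln, with 0, 103 and 30.9 in Klf5 LKO against 1165, 1302 and 1258 in control. The other abundant gene of that list, Gpm6a, had 1815, 1821 and 1998 in Klf5 LKO against 1829, 1694 and 1534 in control, and these ranges overlapped. The 14 stellate and fibroblast markers summed to 9869 to 12571 in Klf5 LKO against 7811 to 7869 in control, most of it from Rgs5. The part of these in the values of Tspan15 and Tspan8 was not tested.

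**Figure D3:**
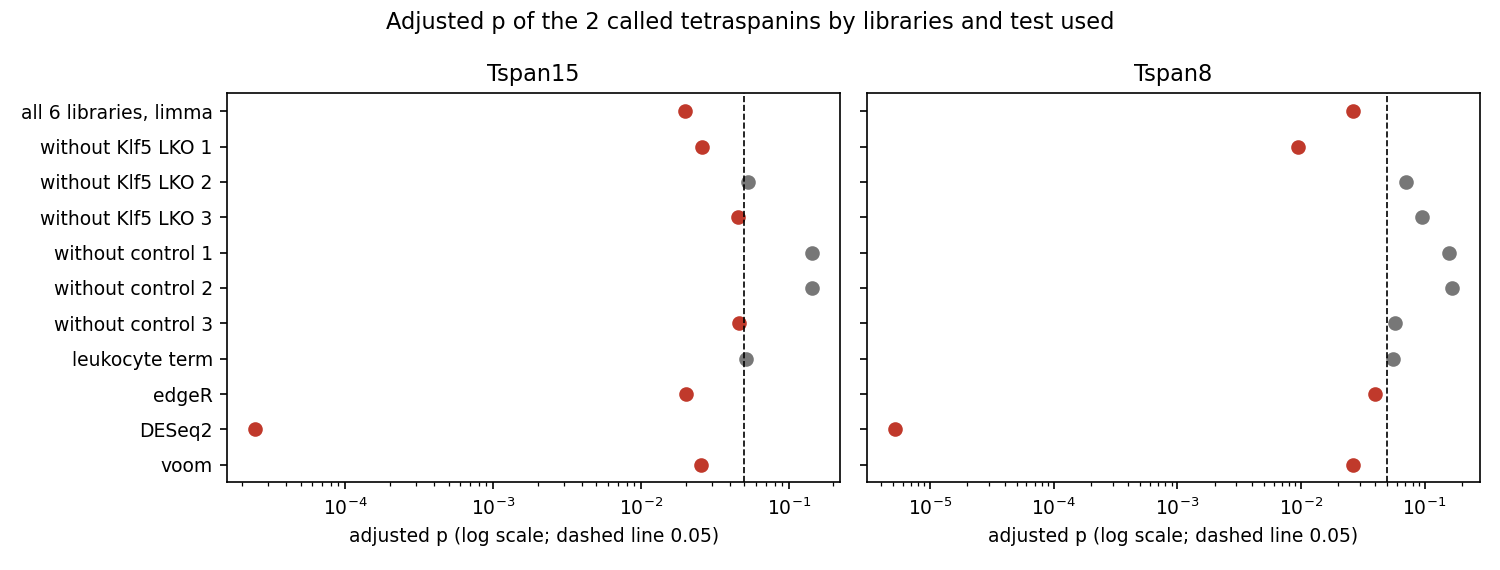
Adjusted p (log scale, dashed line at 0.05) of Tspan15 and Tspan8 with all 6 libraries, without each library in turn, with a leukocyte term, and with the edgeR, DESeq2 and voom tests. Red points lie below 0.05, and for both genes the values without control 1 or control 2 are the highest.

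The start regions of these 2 genes are shown because they are the members that fell, and because Klf5 belongs to a family of factors that bind CACCC-type and GC boxes. The sequences are from RefSeq on GRCm38.p6, the assembly of mm10, and run from 250 bases before to 50 bases after RefSeq's start of the gene, 5′ to 3′ on the gene's strand, with matches of CACCC or GGGCGG on either strand in capitals (their bases may overlap). The Tspan15 region (chr10:62231169-62231468, minus strand) and the Tspan8 region (chr10:115817034-115817333, plus strand) read as follows.
Tspan15: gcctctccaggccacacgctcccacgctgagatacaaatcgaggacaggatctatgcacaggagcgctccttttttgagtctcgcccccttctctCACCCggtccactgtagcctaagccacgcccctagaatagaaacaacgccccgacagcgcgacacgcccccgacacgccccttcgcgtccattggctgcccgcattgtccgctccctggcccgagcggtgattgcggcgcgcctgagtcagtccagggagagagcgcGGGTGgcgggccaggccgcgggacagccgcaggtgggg
Tspan8: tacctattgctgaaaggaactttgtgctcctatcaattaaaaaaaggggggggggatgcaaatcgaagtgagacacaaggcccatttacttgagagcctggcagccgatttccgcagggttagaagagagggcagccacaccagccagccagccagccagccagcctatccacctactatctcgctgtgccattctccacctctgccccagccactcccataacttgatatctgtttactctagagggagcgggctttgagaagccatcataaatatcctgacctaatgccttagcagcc
The Tspan15 region held 2 matches of CACCC and 0 of GGGCGG, and the Tspan8 region held 0 of either, which says only that these letters are not in that window. The Tspan8 position given above is from another annotation and starts at 115816832, before this window. Bases outside this window were not searched, those from 115816832 up to it included. Of all 32851 regions of 300 bases in the table, 57.5% held CACCC and 35.7% held GGGCGG. For 23 of the 24 tested members there were 32 such regions, since some genes have several starts, and 24 of them (75.0%) held CACCC and 15 (46.9%) held GGGCGG.

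Rom1, Cd63 and Cd9 had groups that did not overlap but did not pass the test. Rom1, which with Prph2 shapes the disc rims of photoreceptors, had 60.0, 120.0 and 91.6 normalised counts in Klf5 LKO libraries and 156, 123 and 184 in control libraries. Its nearest values, 120.0 in Klf5 LKO 2 and 123 in control 2, almost met, and its log2 fold change was -0.80 (SE 0.36, limma adjusted p = 0.439). Cd63 had 11348, 10419.5 and 12390.3 in Klf5 LKO against 9876, 9015 and 7746 in control. All 3 Klf5 LKO values of Cd63 were the higher ones, by a log2 fold change of 0.36 (SE 0.13, limma adjusted p = 0.304). Cd9 had 18347, 18077 and 20411 in Klf5 LKO against 17462, 17896 and 16543 in control, and its log2 fold change of 0.13 (SE 0.12, limma adjusted p = 0.749) was close to its SE. The noncoding transcript Gm26728 on the opposite strand overlaps 10.7% of the Cd9 exons.

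**Figure D4:**
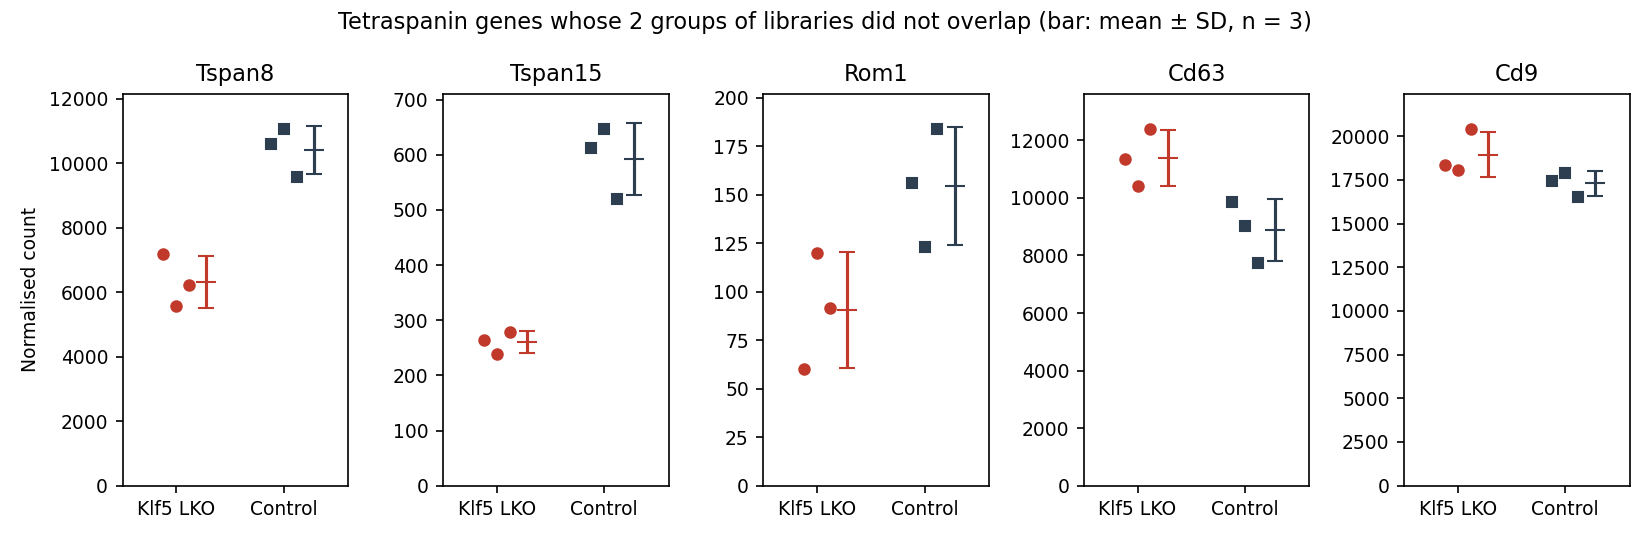
Normalised counts of Tspan8, Tspan15, Rom1, Cd63 and Cd9, with points for the 3 Klf5 LKO libraries on the left and the 3 control libraries on the right of each panel, and a bar for mean ± SD (n = 3). Each axis starts at 0, and the gap is wide for Tspan8 and Tspan15 and narrow for Rom1 and Cd9.

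Of the 6 TspanC8 genes, Tspan15 fell, 0 rose, 4 did not pass and Tspan10 had 0 reads in every library. Tspan14 was the main TspanC8 transcript per kilobase, with 68.6, 79.5 and 70.7% of the subgroup's summed level in Klf5 LKO libraries and 70.2, 70.8 and 74.8% in control libraries. Tspan15 was a small part of it, 1.95, 1.44 and 2.17% in Klf5 LKO against 4.42, 4.83 and 3.81% in control, and these shares did not overlap. The summed level overlapped between groups, at 1654, 2037 and 1572 normalised counts per kilobase in Klf5 LKO against 1692, 1634 and 1670.1 in control. Tspan5 had 112, 144 and 179.9 normalised counts in Klf5 LKO against 46.0, 123 and 66.0 in control. Control 2 lay inside the Klf5 LKO range, and Tspan5, with the highest log2 fold change of the tested members at 0.97 (SE 0.41), did not pass (limma adjusted p = 0.415). Tspan14 had 3006, 4290.5 and 2945 in Klf5 LKO against 3148, 3065 and 3309 in control (limma adjusted p = 0.890). Tspan17 ranged over 402 to 495 in Klf5 LKO against 359.7 to 448 in control, and Tspan33, first known from red cell precursors, over 606 to 904 in Klf5 LKO against 685 to 794 in control. Adam10, the protease that all TspanC8 proteins bind, had 3047, 3278 and 3218 in Klf5 LKO against 3619, 3995 and 3234 in control (log2 fold change -0.18, SE 0.12, limma adjusted p = 0.646). Its lowest control value was 3234 and its highest Klf5 LKO value 3278, so the groups overlapped.

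**Figure D5:**
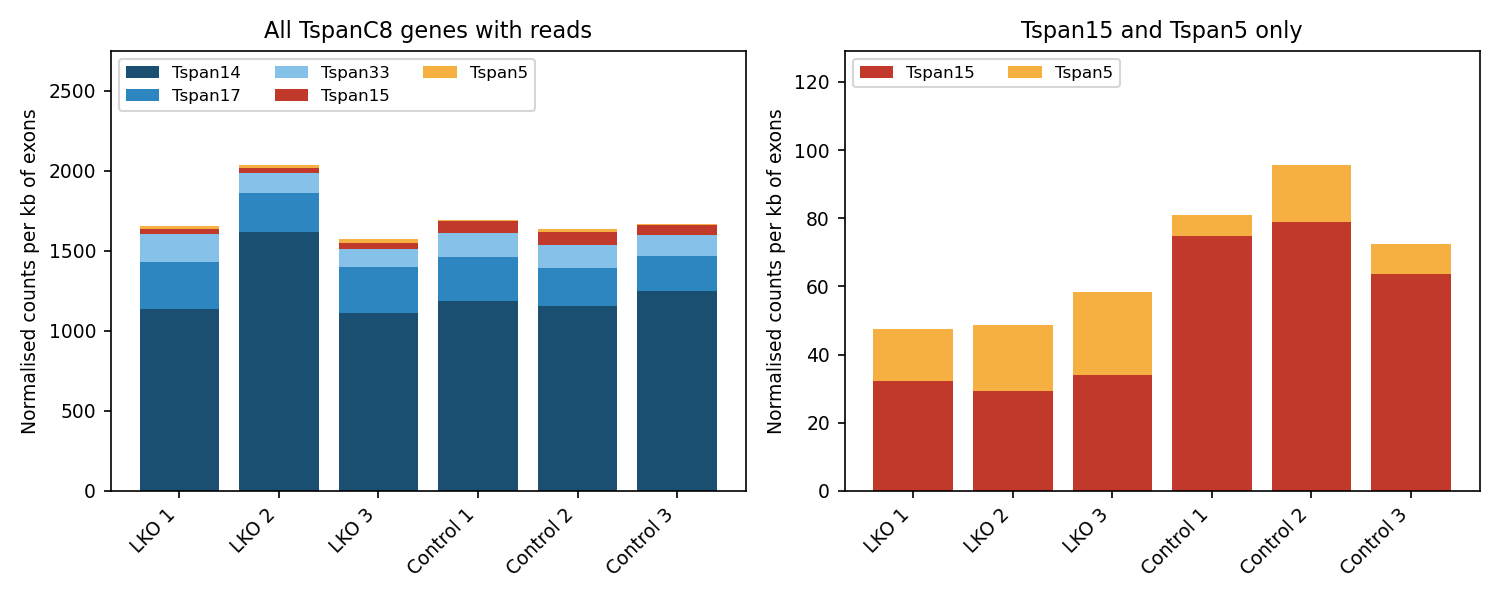
Stacked bars of TspanC8 levels in normalised counts per kilobase of exons, from 0, for Klf5 LKO libraries 1 to 3 on the left and control libraries 1 to 3 on the right of each panel. The left panel has all 5 TspanC8 genes with reads and is filled mostly by Tspan14, and the right panel shows Tspan15 and Tspan5 alone, where the Tspan15 part is smaller in every Klf5 LKO library.

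The other widely expressed tetraspanins did not pass the test. Cd81 had 24967, 20391 and 21493 normalised counts in Klf5 LKO against 20814, 22545 and 18019 in control (log2 fold change 0.12, SE 0.14). Cd82, which limits cell motility and is known from human cancers as a suppressor of metastasis, had 4987, 4914 and 4112 in Klf5 LKO against 4226, 4978 and 3300.0 in control (log2 fold change 0.18, SE 0.16). For both genes the libraries of the 2 groups overlapped, and the 95% confidence interval of the log2 fold change was -0.17 to 0.42 for Cd81 and -0.16 to 0.52 for Cd82. Tspan4, known for building migrasomes, the vesicles left behind by moving cells, had 1394, 961 and 1385 in Klf5 LKO against 975, 767 and 832 in control. Klf5 LKO 2 lay just inside the control range, and the log2 fold change of 0.53 (SE 0.18) had limma adjusted p = 0.282. Tspan12, which strengthens Norrin signalling through Frizzled4 in retinal vessels, had 3033, 1629.9 and 2154 in Klf5 LKO against 1983, 1465 and 1932 in control. Klf5 LKO 1 was its highest library and Klf5 LKO 2 lay within the control range (log2 fold change 0.31, SE 0.21, limma adjusted p = 0.642).

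Tspan3, Tspan7, Tspan9 and Tspan31 had groups that overlapped and did not pass the test. Tspan3 ranged over 3372 to 4155 in Klf5 LKO against 3802 to 4044 in control, and Tspan7, best known from neurons, over 2264 to 2418 in Klf5 LKO against 2185 to 2683 in control. Tspan9, a tetraspanin of platelets, ranged over 1917 to 2646 in Klf5 LKO against 2484 to 2861 in control, and Tspan31 over 2346 to 3254 in Klf5 LKO against 2119 to 3058 in control. Their log2 fold changes were -0.11, -0.04, -0.17 and 0.08, with SEs from 0.12 to 0.17. The exons of Tspan31 share 641 bases, 29.2% of their length, with those of Cdk4 on the opposite strand, and those of Tspan4 share 292 bases, 13.4%, with Chid1, so without strand the reads of these stretches cannot be told apart. Cdk4, a cell cycle kinase, had 4343, 4879 and 4327 in Klf5 LKO against 5416, 4993 and 4111 in control. Chid1 ranged over 181 to 344 in Klf5 LKO against 134 to 407 in control.

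For Tspan6, Tspan13, Tspan18, Tspan2 and Tspan1 the groups overlapped, and none of them passed the test. Tspan6 ranged over 359.9 to 656 normalised counts in Klf5 LKO against 435 to 536 in control. Tspan13 had 394, 93.9 and 224 in Klf5 LKO against 209.7, 201 and 141 in control, and its highest and lowest values were both in Klf5 LKO. Tspan18, known from endothelial cells, ranged over 75.6 to 136 in Klf5 LKO against 68.0 to 142 in control, and Tspan2, a tetraspanin of myelin-forming cells, over 84.2 to 136 in Klf5 LKO against 81.3 to 172 in control. Tspan1, an epithelial tetraspanin, had 41.1, 5.96 and 16.0 in Klf5 LKO against 10.1, 7.90 and 22.4 in control, at most 50 reads in a library. The 95% confidence interval of the log2 fold change was -0.79 to 1.11 for Tspan13 and -1.60 to 2.34 for Tspan1, so changes within these limits are not excluded by these libraries.

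Tetraspanins of leukocytes were low, and Cd53, the member that could be tested, did not pass. Cd53, found on nearly all white blood cells, had 49.3, 10.4 and 26.6 normalised counts in Klf5 LKO against 229.9, 104 and 8.13 in control. The lowest value of the 6 was in control 3 and the highest in control 1, and the groups overlapped (log2 fold change -1.27, SE 1.01, limma adjusted p = 0.708). Without control 3 the log2 fold change was -2.63 (adjusted p = 0.194), and without control 1 it was -0.30 (adjusted p = 0.970). Ptprc, the pan-leukocyte surface phosphatase, had 97.8, 12.7 and 34.1 in Klf5 LKO against 326, 258 and 16.3 in control, with its highest value in control 1 as well. Over 17 leukocyte markers the summed normalised counts were 3276, 2093 and 1923 in Klf5 LKO against 5313, 3284 and 2089.9 in control. Csf1r alone had 868, 1455 and 1297 of these in Klf5 LKO against 1262, 1547 and 1248 in control. Of the 12 tested markers 11 had a negative and 1 a positive log2 fold change, at a median of -1.29, and 12 of 12 did not pass. Cd2, Ms4a1 and Nkg7 had 0 reads in every library but control 1, where they had 3, 12 and 9. Cd37, a tetraspanin of B cells and other leukocytes, was too low to be tested, with 15, 0 and 3 reads in Klf5 LKO against 31, 6 and 0 in control. Tspan32, of blood-forming cells, had 39, 0 and 0 reads in Klf5 LKO against 1, 0 and 0 in control, so nearly all of its reads came from Klf5 LKO 1. With the leukocyte term the log2 fold change of Cd53 was -0.017 (limma adjusted p = 0.995). The part of leukocyte RNA in the values of other members was not tested beyond that fit.

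Apart from Rom1, described above, the tetraspanins of bladder and retina were at or near the limit of detection. Upk1a, a uroplakin of bladder epithelium, was tested and had 9.86, 5.22 and 25.6 normalised counts in Klf5 LKO against 22.1, 6.32 and 18.3 in control (limma adjusted p = 0.942). Upk1b, the other uroplakin of this family and also present in mesothelium, had 0, 0 and 0 reads in Klf5 LKO against 9, 2 and 0 in control. Of the 8 listed mesothelial markers Bnc1 and Krt5 had 0 reads in all 6 libraries, Msln and Gpm6a had the values given above, with Msln lower in every Klf5 LKO library, and Upk3b had 3, 14 and 15 reads in Klf5 LKO against 15, 10 and 22 in control. The part of mesothelial RNA in the few reads of Upk1b was not tested. The uroplakin partners Upk2 and Upk3a had 0 reads in all 6 libraries. Prph2, the photoreceptor partner of Rom1, had 0, 3 and 0 reads in Klf5 LKO against 0, 0 and 0 in control. Tspan10 and Tspan11 had 0 reads in all 6 libraries, and Tspan2os had 1 read, in control 3. In a library 0 reads allow a true count of up to 3, which on the normalised scale is 2.46, 2.24 and 3.19 in Klf5 LKO against 2.76, 4.74 and 3.05 in control, which covers counting error only.

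The partners of tetraspanins did not pass the same test. Cd151, a tetraspanin that binds laminin-binding integrins and lies outside the naming rule, had 2349, 984 and 1346 normalised counts in Klf5 LKO against 994, 1168 and 1074 in control. Klf5 LKO 1 stood above all others and Klf5 LKO 2 below all controls (log2 fold change 0.44, SE 0.25, limma adjusted p = 0.576). Of 32 direct partners of tetraspanins, 28 could be tested, at a median log2 fold change of -0.11. With limma 0 passed in either direction (4 had an unadjusted p below 0.05, as did 1467 of all 13490 tested genes). With edgeR 0 passed, and with DESeq2, which called 2.48% of all tested genes, 2 passed. The 2 were Itga2, a collagen-binding integrin chain, and Cd44, a hyaluronan receptor, named after their values were seen. Itga2 had 819, 819.8 and 464 in Klf5 LKO against 1139, 1324 and 1111 in control, and Cd44 had 7006, 8707 and 7662 in Klf5 LKO against 9745, 11329 and 9921 in control. Neither gene's groups overlapped, and their DESeq2 adjusted p-values were 0.0296 and 0.0454, against limma adjusted p = 0.151 and 0.220. The most abundant partners, Epcam and the junction protein F11r, had log2 fold changes of -0.14 and 0.19. The integrin chains best known as tetraspanin partners, Itga3 and Itga6, ranged over 8361 to 12146 and 2042 to 2777 in Klf5 LKO against 7810.1 to 8822 and 2376 to 3069 in control.

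Of 26 genes of extracellular vesicles and late endosomes, where Cd63, Cd9 and Cd81 proteins are carried, all were tested. With limma 0 passed (5 of the 26 had an unadjusted p below 0.05, against the same 1467 of 13490 genes). With edgeR 0 passed, and with DESeq2, which called 2.48% of all tested genes, 1 passed. The list's median log2 fold change was 0.01. The DESeq2 call was Smpd3, the neutral sphingomyelinase of vesicle budding, also named after its values were seen, with 2017, 1783 and 1287 in Klf5 LKO against 3173, 3107 and 1939 in control (DESeq2 adjusted p = 0.0341, limma adjusted p = 0.228). Its groups overlapped, since Klf5 LKO 1 lay above control 3. Sdcbp, the syntenin adaptor that binds Cd63, had 14316, 11066 and 12072 in Klf5 LKO against 10542, 12173 and 10992 in control, and Pdcd6ip, which joins syntenin to the budding machinery, had 4421, 4982 and 4742 in Klf5 LKO against 5665, 6216 and 5939.6 in control. The groups did not overlap for 5 of the 26 genes, 3 lower in Klf5 LKO (Pdcd6ip, Sdc1 and Chmp6) and 2 higher (Flot1 and Lamp2). Over all tested genes 15.6% did not overlap, 7.88% lower and 7.72% higher. The limma adjusted p was 0.276 for Pdcd6ip, 0.387 for Flot1 and 0.650 for Lamp2. The most abundant of the list, Sdc4 and the lysosomal protein Lamp1, had log2 fold changes of -0.20 and -0.05.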

How the data were processed

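Each RNA-seq library began with 4 ng of RNA, amplified as cDNA by 10 PCR cycles, tagmented, and enriched by 7 more, per the labels' protocols, with kits that mark no strand. The protocols name no molecular identifiers, so reads can be PCR copies. The submitters' processing notes name mm10, TopHat, Bowtie2 and DESeq2. Which counting tool and annotation they used is not given in these sources. The authors deposited a signal per gene and library, which is the count of reads over the size factor of that library. Their deposited comparison table holds log2 fold changes (shrunken, judged from the values), p-values and a test score. All deposited signal values (100%) were whole multiples of 1 read within a tolerance of 0.001, and reads were recovered from them.

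The main test was limma 3.58.1 (eBayes with trend, R 4.3.3) on log2(value + 1) over 13490 genes (mean normalised count 10 or more), two-sided, with Benjamini-Hochberg adjustment over all of them. The added 1 draws the fold changes of low genes towards 0, but a library at 0 can enlarge them. Msln, with 0 in Klf5 LKO 1, had a log2 fold change of -6.38 with limma against -4.76 with edgeR. Alternatives (17) were edgeR 4.0.16, DESeq2 1.42.0 and voom on recovered reads, 2 other scalings, 2 pseudocounts, 2 filters, a replicate block, a leukocyte term and leaving out each library. The members, lists and tests were chosen with earlier results of these data known. Lists are described by counts and medians. All members are named, with full statistics for those that passed a test or whose groups did not overlap. GENCODE M21 (GRCm38, that is mm10) gave positions and merged exon lengths and matched all 31 members by symbol. RefSeq gave start regions. The fit was tested on simulated data, with changes larger than those of Tspan15 and Tspan8 and placed in well expressed genes only. That test does not cover smaller changes or low genes.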

Additional observations from a re-analysis of the deposited data

How the results depend on the processing

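Tspan15 and Tspan8 kept their direction under all 17 alternatives. Of the 24 tested members 14 kept the sign of their fold change under all of them, and none of the 26 sign changes in the other 10 involved a value past the threshold. With a leukocyte term 0 members were called, and between 0 and 2 when 1 library was left out. Over all genes 88 were called (66 lower, 22 higher), against 335 (216 lower, 119 higher) with DESeq2 and 13 higher with no filter. Leaving out 1 library gave 14 to 103 calls, 13 to 81 lower and 1 to 22 higher, and the fewest calls came without control 2. In the partner and vesicle lists with Cd151, 0 genes were called, against 3 with DESeq2. The log2 fold change of Klf5 ranged over -0.98 to -0.84 when 1 library was left out, and its call ended without control 1, 2 or 3 (adjusted p = 0.0671, 0.0702 and 0.0573). The cause of these changes was not tested.

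Among members that did not pass the test, log2 fold changes when 1 library was left out ranged over -0.0831 to 0.21 for Tspan31, -0.32 to 0.71 for Tspan13, -0.0925 to 0.18 for Tspan14, -0.21 to 0.32 for Tspan18, -0.51 to 0.0237 for Tspan2, -0.28 to 1.02 for Tspan1, -0.24 to 0.0449 for Tspan33, -0.85 to 0.20 for Upk1a, -0.11 to 0.0371 for Tspan7 and -0.29 to 0.15 for Tspan6, and all of these changed sign. Others kept their sign but moved by over 1.5 times, over 0.0209 to 0.32 for Cd82, 0.0762 to 0.52 for Tspan12, 0.0354 to 0.20 for Cd81, 0.0748 to 0.16 for Cd9, 0.13 to 0.29 for Tspan17, -0.26 to -0.0313 for Tspan9, -0.20 to -0.0479 for Tspan3 and -2.63 to -0.30 for Cd53. With the leukocyte term values that changed sign were -0.0029 for Tspan14, -0.23 for Tspan18, 0.041 for Tspan2, 0.051 for Tspan33 and 0.099 for Tspan6. Tspan6 had 0.0157 with edgeR, 0.0184 with DESeq2 and 0.0095 with voom, and Tspan18 -0.0056 with voom.

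Same-numbered libraries of the 2 groups had correlations of deviations of 0.185, -0.0116 and 0.106, and differently numbered ones ranged over -0.198 to 0.138. Not every library correlated best with its own number. Whether same-numbered libraries belong together cannot be told from these values. With a replicate block 110 genes, 2 members (adjusted p = 0.0330 for Tspan15 and 0.0316 for Tspan8) and 1 gene of the other lists, Smpd3, were called. With a mean of at least 50 there was no value for Tspan1 and Upk1a. Depth limits the 7 members left untested, which had at most 39 reads in a library.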
